A study of Mus musculus with 10 samples.

Results

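A set of 9 genes of the enteroendocrine lineage was followed in RNA-seq libraries of proximal small intestine: the lineage transcription factors *Neurog3*, *Neurod1*, *Insm1*, *Isl1*, *Pax6* and *Pax4*, the granins *Chga* and *Chgb*, and the prohormone convertase *Pcsk1*. They were taken as a list of 9 gene symbols, matched to the Ensembl gene IDs of the deposited counts, and no measured value enters that rule, although the list was drawn up with earlier results of these data known. All 9 were found among the 35275 gene IDs of the series, and 8 of them were among the 15610 genes that passed the filter on low counts; *Pax4* did not.

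The series compares mice that lack the zinc and manganese transporter *Zip14* (*Slc39a14*) with controls, using 5 KO and 5 WT libraries of total RNA from 1 mouse each. Both groups are labelled as proximal intestine of mice aged 8 to 10 weeks; the methods give a wider age range and both sexes, and sex is not given per mouse. *Xist*, the RNA of the inactive X chromosome, was at 309 to 590 CPM in all 10 libraries, and the Y-linked *Ddx3y* had 1 count in 1 KO library and 0 in the others. The sample labels state only KO or WT, while the methods describe a whole-body deletion with controls of the same strain and the series title a deletion in enterocytes, so the groups are called KO and WT here. The RNA came from whole intestinal segments, which hold epithelium, muscle, nerves and immune cells, and the replicates are mice whose litter or day of dissection is not given.

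Enteroendocrine cells are the scattered hormone-producing cells of the gut epithelium and arise from the same crypt stem cells as enterocytes, goblet cells and Paneth cells. *Atoh1* opens the secretory fate, and a short pulse of *Neurog3* commits a progenitor to the endocrine fate. *Neurod1*, *Insm1*, *Isl1*, *Pax4* and *Pax6* then act on differentiation and on the choice of hormone, and the mature cell packs its peptides with the granins chromogranin A and chromogranin B and cuts prohormones with convertases such as *Pcsk1*. Several of these genes are also used by neurons and by pancreatic islet cells.

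The promoters of the members whose levels the results turn on are shown, with that of *Pcsk1* as the member whose level differed least. Each sequence runs 5′ to 3′ on the strand of the gene, from 250 bases before to 50 bases after the RefSeq start in GRCm38.p6. Capitals mark the E-box CANNTG, the motif of basic helix-loop-helix factors such as *Atoh1*, *Neurog3* and *Neurod1*, and the cAMP response element TGACGTCA or its shorter form TGACG, searched on both strands; TGACGTCA contains TGACG. The *Neurog3* window lies at chr10:62132840-62133139 on the plus strand, that of *Chga* at chr12:102554691-102554990 on the plus strand, that of *Chgb* at chr2:132781392-132781691 on the plus strand and that of *Pcsk1* at chr13:75089607-75089906 on the plus strand.
Neurog3: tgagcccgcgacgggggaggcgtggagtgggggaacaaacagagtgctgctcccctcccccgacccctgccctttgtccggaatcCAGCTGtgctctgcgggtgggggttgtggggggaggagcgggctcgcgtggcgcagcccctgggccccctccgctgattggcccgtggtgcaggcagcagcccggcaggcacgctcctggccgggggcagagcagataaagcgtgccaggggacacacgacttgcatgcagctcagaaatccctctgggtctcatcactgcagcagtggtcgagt
Chga: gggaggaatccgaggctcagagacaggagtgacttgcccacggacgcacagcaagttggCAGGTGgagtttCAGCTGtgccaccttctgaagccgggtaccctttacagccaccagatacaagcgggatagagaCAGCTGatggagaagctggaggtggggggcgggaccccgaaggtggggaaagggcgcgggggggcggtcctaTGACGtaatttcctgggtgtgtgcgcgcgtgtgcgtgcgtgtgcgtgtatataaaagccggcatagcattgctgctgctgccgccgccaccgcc
Chgb: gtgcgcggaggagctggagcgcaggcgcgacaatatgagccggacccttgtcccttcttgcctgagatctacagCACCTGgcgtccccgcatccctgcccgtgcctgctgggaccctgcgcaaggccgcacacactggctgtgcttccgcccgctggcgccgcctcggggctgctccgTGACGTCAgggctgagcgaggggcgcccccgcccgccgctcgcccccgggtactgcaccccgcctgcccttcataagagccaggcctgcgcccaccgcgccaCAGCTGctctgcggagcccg
Pcsk1: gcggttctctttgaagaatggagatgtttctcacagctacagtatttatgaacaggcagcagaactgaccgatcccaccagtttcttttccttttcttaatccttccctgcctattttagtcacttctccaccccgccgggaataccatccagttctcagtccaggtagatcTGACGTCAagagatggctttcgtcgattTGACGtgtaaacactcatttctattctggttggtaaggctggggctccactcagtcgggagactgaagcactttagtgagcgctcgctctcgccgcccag

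The RefSeq table held windows for 7 of the 9 members, 8 windows in all since *Pax6* has 2 starts; *Pax4* and *Insm1* had no entry. The E-box was found in 6 of the 8 windows, and 72.3% of the 32851 promoters of the table hold it. The full TGACGTCA was found in 3 windows, those of *Chgb* (position 179 from the 5′ end of the window), *Pcsk1* (position 173) and the first start of *Pax6* (position 175), against 1.79% of all promoters. The shorter TGACG was found in 6 windows of 5 members, against 20.8% of all promoters. In the *Chga* window TGACG stands at position 207, after E-boxes at positions 60, 72 and 135, and the *Neurog3* window holds 1 E-box, at position 86. Of *Chgb* and *Pcsk1*, which both carry TGACGTCA, *Chgb* was far lower in KO and *Pcsk1* was not past the threshold.

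Totals lay between 16729787 and 20819678 counts per library in WT and between 17118742 and 19414828 in KO. Levels are given as CPM, counts scaled to a common library size after TMM normalization. KO was set against WT by the quasi-likelihood test of edgeR over all 15610 genes, where a Benjamini-Hochberg adjusted p under 0.05 counts as past the threshold. *Slc39a14* itself was at 191 to 357 CPM in WT and 78.5 to 160.1 CPM in KO, a log2 fold change of −1.35 ± 0.22 (SE, adjusted p = 0.00184). Markers of a place along the intestine and of other cell types separated the groups as well. *Gata4*, a factor of the proximal intestine, was at 160.3 to 217 CPM in WT and 0.572 to 59.4 CPM in KO, whereas *Fabp6*, the ileal bile acid binding protein, was at 0.0638 to 1.74 CPM in WT and 2307 to 9058 CPM in KO. By *Gata4* and *Fabp6* the WT libraries matched their label of proximal intestine, while in the KO libraries *Gata4* was low and *Fabp6* high. The summed level of 8 ileal markers was 1582 to 3192 CPM in WT and 4823 to 11415 CPM in KO, so ileal markers other than *Fabp6* were present in WT too. That of 8 proximal markers was 4785 to 11943 CPM in WT and 91.7 to 639 CPM in KO. Whether the segments came from the same place along the intestine cannot be told apart from genotype with these files.

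Of the 8 tested members, 5 were lower in KO and 0 were higher by edgeR's adjusted p. Over all tested genes 29.9% were called at the same threshold, 13.9% being lower and 16.0% higher in KO, as shares of all tested genes. Because of how the list was drawn up, the members' count is a description and not an independent test of the list. At an unadjusted p under 0.05, 6 members were lower and 0 higher, where 20.1% and 23.2% of all genes were, and DESeq2 called 5 members lower and 0 higher against 14.5% and 16.3% of the genes it tested. The log2 fold change of all 8 was below 0, with a median of −0.79 against 0.03 over all tested genes. In 4 members, *Neurog3*, *Isl1*, *Chga* and *Chgb*, every KO library lay below every WT library, which held for 10.8% of all tested genes. The reverse, every KO library above every WT library, held for 0 members and for 10.2% of all tested genes. In bulk tissue fewer enteroendocrine cells and less of these RNAs per cell cannot be told apart.

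**Figure D1:**
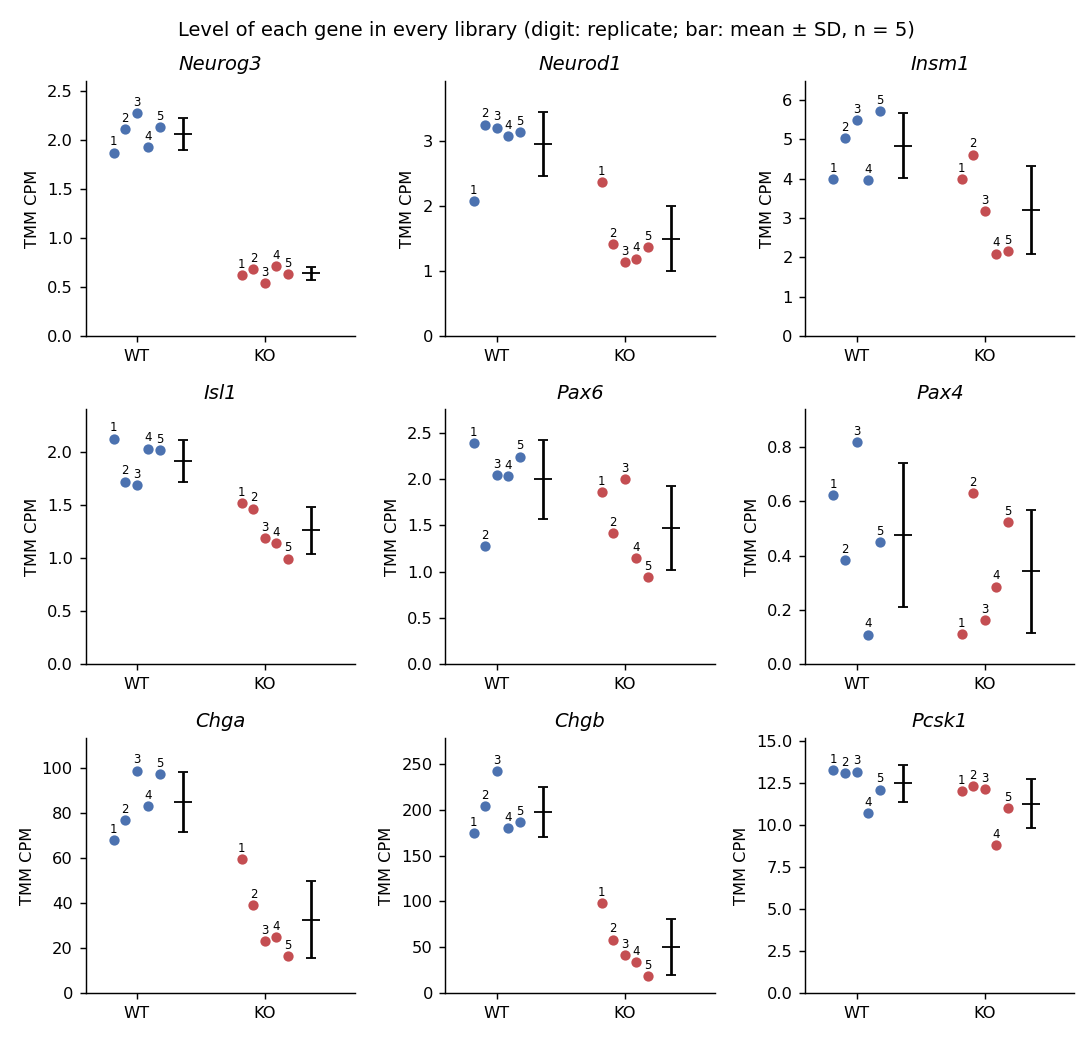
TMM CPM (linear axis from 0) of each of the 9 genes in the 5 WT and 5 KO libraries, with the replicate number above each point and the mean ± SD as a bar. The groups are separate for *Neurog3*, *Isl1*, *Chga* and *Chgb* and overlap for *Neurod1*, *Insm1*, *Pax6*, *Pax4* and *Pcsk1*.

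*Neurog3* (ENSMUSG00000044312, GRCm38, chr10:62133090-62134763, plus strand, 1 exon), the factor that starts the endocrine fate, had 1.87, 2.11, 2.27, 1.92 and 2.13 CPM in WT replicates 1 to 5 and 0.620, 0.682, 0.540, 0.715 and 0.630 CPM in KO replicates 1 to 5. These levels rest on 33 to 39 counts per WT library and 10 to 15 counts per KO library. The KO libraries lay close together, and the highest of them was far below the lowest WT library. The mean was 2.06 ± 0.165 CPM in WT and 0.637 ± 0.0669 CPM in KO (SD, n = 5 each), 3.23-fold lower in KO. On the log2 scale KO differed from WT by −1.68 ± 0.18 (SE), with a 95% interval from −2.08 to −1.28 (edgeR adjusted p = 2.75e-04). The SE was wider in other fits, 0.29 with DESeq2 and 0.23 without the count filter. With so few counts the interval of the reported fit may be too narrow. The gene overlaps *Fam241b* on the other strand, and since the handling of strand is not given, reads of either gene may be counted for the other.

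*Neurod1* (ENSMUSG00000034701, chr2:79452521-79456751, minus strand, 2 exon blocks), a direct target of *Neurog3* that carries differentiation on, had 2.08, 3.25, 3.21, 3.08 and 3.14 CPM in WT replicates 1 to 5. In KO replicates 1 to 5 it had 2.37, 1.42, 1.13, 1.19 and 1.36 CPM. WT replicate 1 and KO replicate 1 each stood apart from their group and overlapped, and the other 4 KO libraries lay below all WT libraries. The mean was 2.95 ± 0.494 CPM in WT and 1.49 ± 0.501 CPM in KO (SD, n = 5 each), with a log2 fold change of −0.98 ± 0.24 (SE) and a 95% interval from −1.51 to −0.45 (edgeR adjusted p = 0.0127). The difference was −1.21 on the log2 scale when KO replicate 1 was left out and −1.09 when WT replicate 1 was. *Neurod1* overlaps *Cerkl* on the same strand and *Gm26755* on the other.

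*Isl1* (ENSMUSG00000042258, chr13:116298281-116309689, minus strand, 7 exon blocks), a LIM homeodomain factor needed for several hormone lineages and also made in neurons, had 2.13, 1.72, 1.69, 2.03 and 2.02 CPM in WT replicates 1 to 5. In KO replicates 1 to 5 it had 1.52, 1.47, 1.19, 1.14 and 0.997 CPM. The groups did not overlap, but the gap between them was small. The mean was 1.92 ± 0.198 CPM in WT and 1.26 ± 0.223 CPM in KO (SD, n = 5 each), 1.52-fold lower. The log2 fold change was −0.60 ± 0.19 (SE), with a 95% interval from −1.02 to −0.18 (edgeR adjusted p = 0.0368). This call did not hold in 8 of the 10 fits that left out 1 library (adjusted p up to 0.0862 without WT replicate 1), nor without the count filter (adjusted p = 0.0785), with the replicate block (adjusted p = 0.0831) or with library size in place of TMM (adjusted p = 0.0809).

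*Insm1* (ENSMUSG00000068154, chr2:146221921-146225020, plus strand, 1 exon), a zinc finger repressor found throughout endocrine differentiation, had 4.0, 5.04, 5.48, 3.96 and 5.72 CPM in WT replicates 1 to 5. In KO replicates 1 to 5 it had 4.0, 4.62, 3.18, 2.10 and 2.15 CPM. KO replicates 1 and 2 lay among the WT libraries and the other 3 lay below them. The log2 fold change was −0.59 ± 0.25 (SE), with a 95% interval from −1.14 to −0.05, and missed the threshold (edgeR adjusted p = 0.0901). Without KO replicate 2 it was −0.77 and past the threshold (adjusted p = 0.0403).

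*Pax6* (ENSMUSG00000027168, chr2:105668900-105697364, plus strand, 16 exon blocks), a paired-box factor that acts on hormone gene transcription, had 2.39, 1.28, 2.04, 2.03 and 2.24 CPM in WT replicates 1 to 5 and 1.86, 1.42, 2.0, 1.14 and 0.944 CPM in KO replicates 1 to 5. The groups overlapped, with 2 KO libraries below all WT libraries. A log2 fold change of −0.44 ± 0.26 (SE) was fitted, and its 95% interval from −1.02 to 0.13 includes 0 (edgeR adjusted p = 0.213). *Pax6* overlaps *Pax6os1* on the other strand.

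*Pax4* (ENSMUSG00000029706, chr6:28442334-28449353, minus strand, 11 exon blocks), a paired-box factor of early endocrine cells, was near the limit of detection, with 12, 6, 14, 2 and 8 counts in WT replicates 1 to 5 and 2, 12, 3, 6 and 10 counts in KO replicates 1 to 5. The groups overlapped over their whole range. It did not pass the filter on low counts, and its mean log2 CPM (prior count 2) differed by −0.37 between KO and WT (exact permutation test, two-sided, p = 0.468, n = 5 each). A difference in *Pax4* was not detectable at this depth.

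The granins were the most abundant members. *Chga* (ENSMUSG00000021194, chr12:102554969-102565028, plus strand, 8 exon blocks) had 67.9, 77.0, 99.0, 83.1 and 97.6 CPM in WT replicates 1 to 5 and 59.8, 39.0, 22.9, 25.0 and 16.5 CPM in KO replicates 1 to 5. KO replicate 1 came close to the lowest WT library, and KO replicate 5 was the lowest of all. The mean was 84.9 ± 13.4 CPM in WT and 32.6 ± 17.3 CPM in KO (SD, n = 5 each), 2.60-fold lower in KO. The log2 fold change was −1.38 ± 0.30 (SE), with a 95% interval from −2.04 to −0.72 (edgeR adjusted p = 0.00734).

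*Chgb* (ENSMUSG00000027350, chr2:132781278-132795079, plus strand, 5 exon blocks) had 175, 204, 242, 180.0 and 186 CPM in WT replicates 1 to 5 and 97.7, 58.1, 41.3, 33.6 and 18.0 CPM in KO replicates 1 to 5. All KO libraries were well below the WT libraries, and KO replicates 1 and 5 were again the highest and the lowest. The mean was 197 ± 27.2 CPM in WT and 49.8 ± 30.5 CPM in KO (SD, n = 5 each), 3.97-fold lower and the largest fold among the members. On the log2 scale the difference was −1.99 ± 0.36 (SE), with a 95% interval from −2.78 to −1.20 (edgeR adjusted p = 0.00313).

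*Pcsk1* (ENSMUSG00000021587, chr13:75089826-75134861, plus strand, 14 exon blocks), the convertase that cuts prohormones in the granule, had 13.3, 13.1, 13.2, 10.7 and 12.1 CPM in WT replicates 1 to 5. In KO replicates 1 to 5 it had 12.0, 12.3, 12.1, 8.82 and 11.0 CPM. The groups overlapped, and only KO replicate 4 lay below all WT libraries. KO and WT differed by a log2 fold change of −0.15 ± 0.12 (SE), and its 95% interval from −0.42 to 0.12 leaves out a fall of the size seen in *Chga* (edgeR adjusted p = 0.383).

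Per kilobase of exon, *Chgb* was the most abundant member in WT, with a mean of 72.1 CPM per kilobase, followed by *Chga* with 30.8. *Pcsk1* followed with 2.23, *Insm1* with 1.56, *Neurog3* with 1.23 and *Neurod1* with 1.08 CPM per kilobase, and *Isl1*, *Pax4* and *Pax6* lay below these at 0.485, 0.329 and 0.171. In KO the granins kept the first and second place, with 18.2 and 11.8 CPM per kilobase, and *Neurog3* at 0.381 fell below *Neurod1* at 0.548. Of the 9 members, 4 (*Chgb*, *Neurod1*, *Pax6* and *Insm1*) lie on chromosome 2 and 2 (*Isl1* and *Pcsk1*) on chromosome 13.

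**Figure D2:**
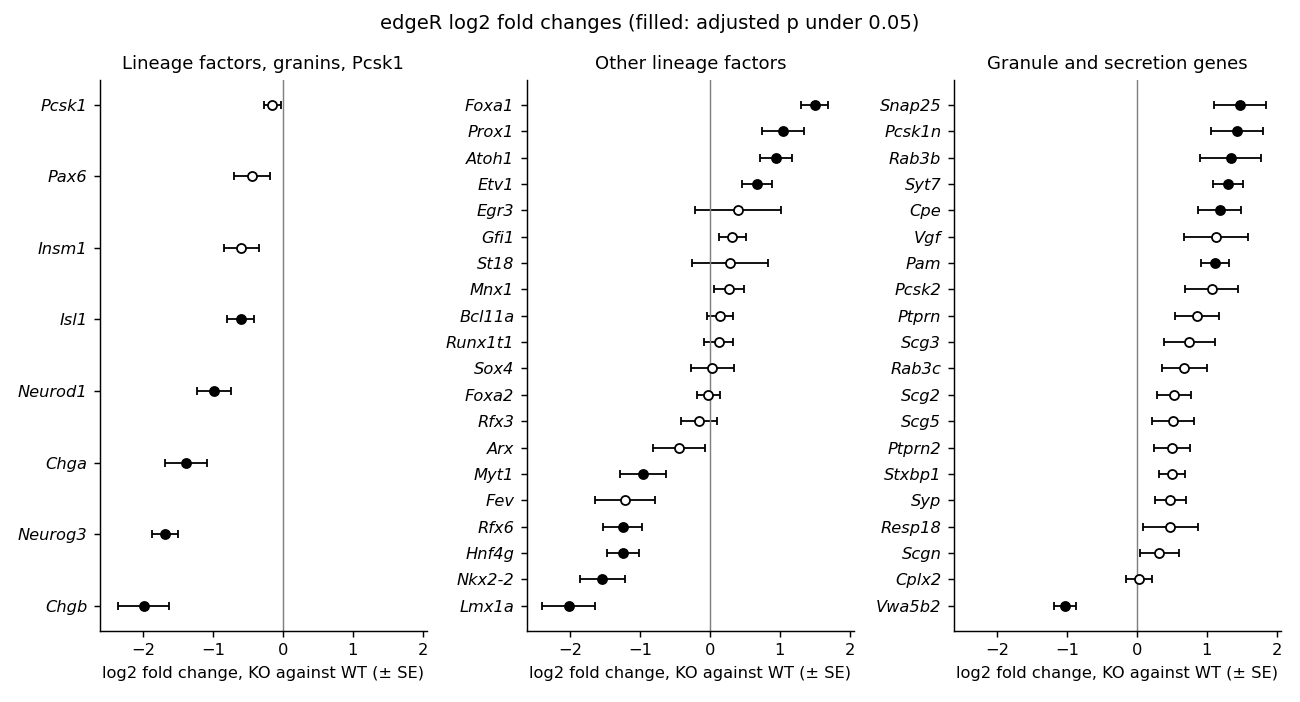
edgeR log2 fold changes of KO against WT with their SE for the 8 tested members, 20 other lineage factors and 20 granule and secretion genes; filled points have an adjusted p under 0.05. All members lie below 0, the other lineage factors lie on both sides, and 19 of the 20 granule genes lie above 0.

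The other lineage factors did not all go the same way. Of 20 such genes, 5 were lower and 4 higher in KO, and 11 were not past the threshold. Over all tested genes 13.9% were lower and 16.0% higher. The median log2 fold change of the 20 was 0.08. Scaled to epithelial genes, where 63.0% of all tested genes were lower and 2.99% higher, 10 were lower and 1 higher. The count of 4 higher fell to 2 without WT replicate 2, without WT replicate 3, without KO replicate 2 and with the replicate block. *Atoh1*, which opens the secretory fate before *Neurog3*, had 21.1, 13.1, 13.8, 22.8 and 24.5 CPM in WT replicates 1 to 5 and 28.3, 49.4, 41.8, 26.0 and 38.6 CPM in KO replicates 1 to 5. All KO libraries were above all WT libraries (log2 fold change 0.95 ± 0.23 SE, edgeR adjusted p = 0.0109), opposite in direction to *Neurog3*. *Foxa1*, a forkhead factor of the secretory lineages, was higher with a log2 fold change of 1.5, *Prox1* with 1.05 and *Etv1* with 0.67.

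The 5 lower factors were *Lmx1a*, *Nkx2-2*, *Rfx6*, *Myt1* and *Hnf4g*. *Lmx1a*, a factor of serotonin-producing enterochromaffin cells, was at 1.66 to 2.52 CPM in WT and 0.238 to 0.958 CPM in KO, a log2 fold change of −2.02 ± 0.38 (SE, edgeR adjusted p = 0.00384). *Nkx2-2*, a homeodomain factor of several hormone lineages, changed by −1.54, *Rfx6* by −1.25 and the zinc finger factor *Myt1* by −0.95 on the log2 scale. For *Myt1* the groups overlapped (edgeR adjusted p = 0.0458), as they did for *Prox1* among the higher factors. The fifth, *Hnf4g*, is a nuclear receptor of enterocytes and changed by −1.25.

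Of 20 granule and secretion genes, 6 were higher in KO, 1 was lower (*Vwa5b2*, log2 fold change −1.02) and 13 were not past the threshold. Over all tested genes 16.0% were higher and 13.9% lower. The median log2 fold change of the 20 was 0.71. Scaled to epithelial genes, where 63.0% of all tested genes were lower and 2.99% higher, 1 was higher and 2 were lower. Without KO replicate 1 the count higher in KO was 10, and it was 9 with DESeq2 and with library size only. *Cpe*, the carboxypeptidase that trims peptides after *Pcsk1* has cut them, was at 42.4 to 84.3 CPM in WT and 93.0 to 273 CPM in KO, a log2 fold change of 1.18 ± 0.31 (SE, edgeR adjusted p = 0.0154). *Pam*, which amidates peptides, was higher by 1.11, *Syt7* by 1.3, *Snap25* by 1.47, the *Pcsk1* inhibitor *Pcsk1n* by 1.43 and *Rab3b* by 1.34 on the log2 scale. These genes are also used by neurons, and 4 of the 6 (*Cpe*, *Snap25*, *Pcsk1n* and *Rab3b*) were highest in KO replicate 4, while *Pam* was highest in KO replicate 3 and *Syt7* in KO replicate 2. KO replicate 4 also had the highest summed level of 12 markers of enteric neurons, 264 CPM against 38.5 to 74.8 CPM in WT and 83.8 to 146 CPM in the other KO libraries. The part of nerve RNA in these differences was not tested.

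Through the Notch pathway neighbouring crypt cells hold each other back from the secretory fate. Of 12 of its genes, 3 were lower, 1 was higher and 8 were not past the threshold. Over all tested genes 13.9% were lower and 16.0% higher. Scaled to epithelial genes 8 were lower and 1 was higher, a share lower that is close to the 63.0% of all tested genes. The count higher was 3 without KO replicate 1, and 2 without KO replicate 2, without KO replicate 5 and with library size only. *Dll1*, a ligand carried by secretory progenitors, was at 32.6 to 40.7 CPM in WT and 14.5 to 24.3 CPM in KO, with no overlap (log2 fold change −0.96 ± 0.14 SE, edgeR adjusted p = 0.00108). The ligand *Jag1* changed by −0.64 and *Dtx4* by −0.54, while *Neurl1a*, a ubiquitin ligase that acts on Notch ligands, was higher by 1.65. The effector *Hes1* had a log2 fold change of −0.09 ± 0.12 (SE), not past the threshold.

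Ratios of counts within a library do not depend on scaling and are given as a description, since the pairs were chosen after the values were seen. The ratio of *Neurog3* to *Atoh1* was 0.0885, 0.161, 0.165, 0.0843 and 0.0868 in WT replicates 1 to 5 and 0.0219, 0.0138, 0.0129, 0.0275 and 0.0163 in KO replicates 1 to 5, with no overlap. The ratio of *Neurod1* to *Neurog3* ran the other way, from 1.11 to 1.60 in WT and from 1.67 to 3.82 in KO. The lowest KO value, in replicate 4, lay close to the highest WT value. In KO every ratio with *Neurog3* rests on 10 to 15 counts of it per library, so counting error is large. The ratio of *Chgb* to *Chga* was lower in every KO library, at 1.91 to 2.65 in WT and at 1.09 to 1.80 in KO. The ratio of *Pcsk1* to *Chga* was 0.124 to 0.196 in WT and 0.201 to 0.669 in KO, so that KO replicate 1 lay next to the highest WT library. *Insm1* to *Neurog3* was also higher in every KO library, at 2.06 to 2.68 in WT and 2.93 to 6.77 in KO, while *Chga* to *Neurod1* overlapped.

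**Figure D3:**
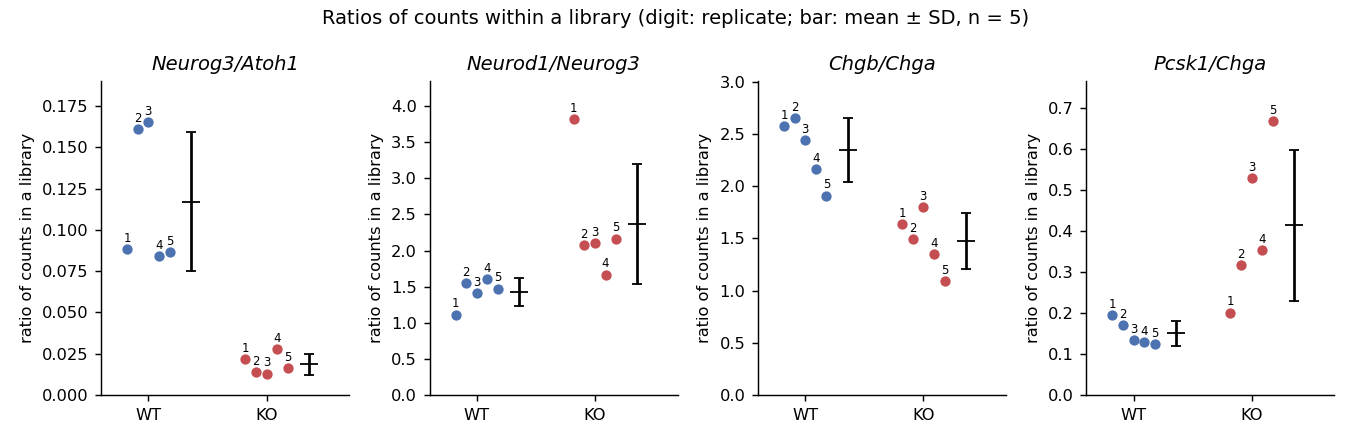
Ratio of the counts of a pair of genes within each library (linear axis from 0) for 5 WT and 5 KO libraries, with the replicate number above each point and the mean ± SD as a bar. *Neurog3* over *Atoh1* and *Chgb* over *Chga* are lower in every KO library than in every WT library, and *Neurod1* over *Neurog3* and *Pcsk1* over *Chga* are higher. The ratios with *Neurog3* rest on 10 to 15 counts of it per KO library.

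The KO libraries differed more from one another in *Chga* and *Chgb* than in *Neurog3*. The *Neurog3* values rest on 10 to 15 counts per KO library. These are too few to tell whether its level was more even than that of the granins. KO replicate 1 had the most *Chga*, *Chgb*, *Neurod1* and *Isl1* of the KO libraries and also the most *Gata4*, 59.4 CPM against 0.572 to 13.8 CPM in the other 4. Its *Slc39a14* level, 160.1 CPM, was also the highest of the KO libraries. KO replicate 5 had the least *Chga*, *Chgb*, *Pax6* and *Isl1*, and 1.47 CPM of *Gata4*. The other 5 members did not have their highest KO level in replicate 1: *Insm1*, *Pcsk1* and *Pax4* had it in replicate 2, *Pax6* in replicate 3 and *Neurog3* in replicate 4, and *Pax4* was lowest in replicate 1. Leaving out KO replicate 1 gave log2 fold changes of −1.72 for *Chga*, −2.39 for *Chgb* and −1.67 for *Neurog3*, and 5 members were lower as before.

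**Figure D4:**
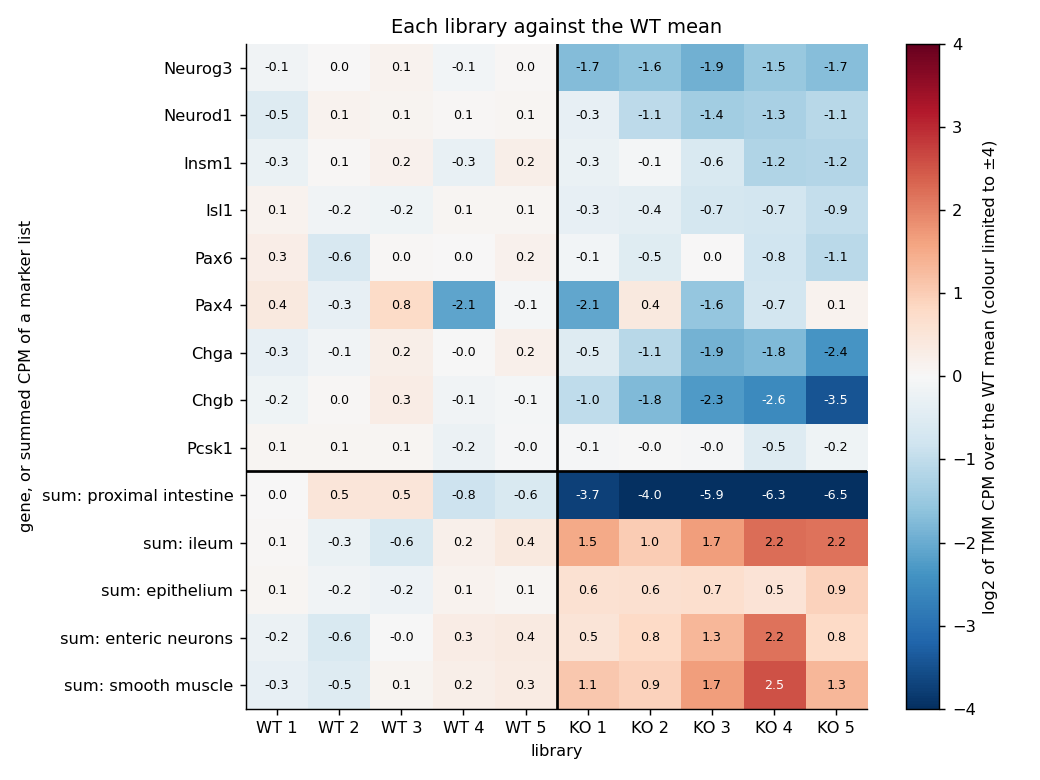
Log2 of the TMM CPM of each library over the WT mean, for the 9 members (above the line) and for the summed CPM of 5 marker lists (below it), with colour limited to ±4. Within KO, *Chga* and *Chgb* range from −0.51 and −1.01 in replicate 1 to −2.37 and −3.46 in replicate 5. *Neurog3* lies between −1.93 and −1.53, on 10 to 15 counts per KO library.

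Marker lists of several other cell types moved with genotype, where over all tested genes 16.0% were higher and 13.9% lower in KO. Of 8 smooth muscle genes 8 were higher in KO, with a summed level of 1160 to 2084 CPM in WT and 3127 to 9610 CPM in KO, led by *Myh11*, *Acta2*, *Des* and *Tagln*. Of 12 enteric neuron genes 11 were higher, with *Vip*, the most abundant, not past the threshold. Of 5 tested genes of enteric glia 4 were higher. The summed level of the 6 glia genes did not rise, at 423 to 649 CPM in WT and 401 to 534 CPM in KO. Of 10 epithelial genes 7 were higher and 0 lower, with a summed level of 7152 to 9011 CPM in WT and 11836 to 15404 CPM in KO. When counts were scaled to these 10 epithelial genes in place of TMM, 8 members were past the threshold as lower in KO, on a scale where 63.0% of all tested genes were lower and the median log2 fold change of all genes was −0.65. With a smooth muscle score in the model 0 members and 7 genes of all were past the threshold, and with an enteric neuron score 1 member, *Neurog3* (log2 fold change −1.77, adjusted p = 0.0335), and 107 genes; the scores separate the groups, so that their part and that of genotype cannot be told apart. With either score 0 of the other lineage factors, granule and secretion genes and Notch pathway genes were past the threshold in either direction.

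Of 8 markers of the proximal intestine 6 were tested, 4 were lower in KO (*Apoa4*, *Fabp1*, *Gata4* and *Onecut2*) and 0 higher, and of 8 markers of the ileum 7 were higher and 0 lower. The part of place along the intestine in the members' differences was not tested. Pancreatic islets, which also use these factors and granins, were near 0, with *Ins2* at 0 to 0.892 CPM and *Iapp* at 0.286 to 1.25 CPM over all libraries, and *Iapp* was lower in KO (log2 fold change −1.04, edgeR adjusted p = 0.0462). No gene of the 6 pancreatic acinar and of the 6 stomach markers passed the count filter. Of 6 lymphocyte genes 0 passed the threshold in either direction.

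**Figure D5:**
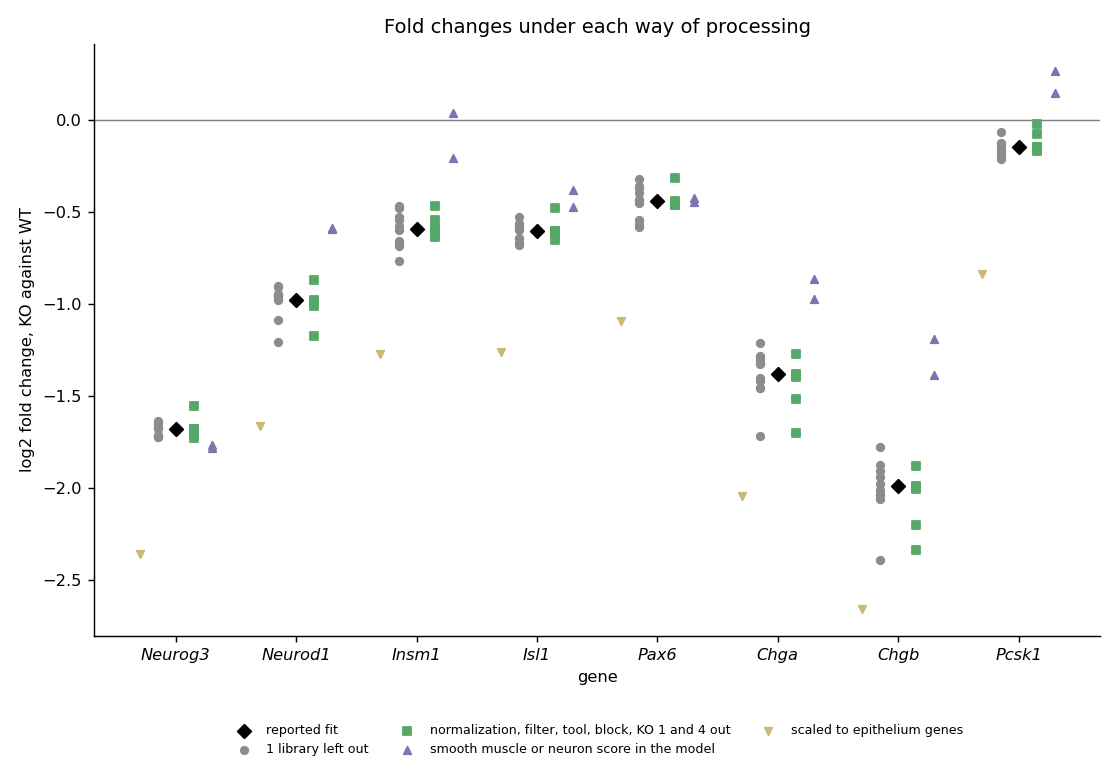
Log2 fold change of KO against WT for each of the 8 tested members in the reported fit (diamonds) and in 21 alternatives, by kind of alternative. *Neurog3*, *Neurod1*, *Isl1*, *Pax6*, *Chga* and *Chgb* stay below 0 throughout, and *Insm1* and *Pcsk1* cross 0 with a tissue score in the model.

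The genes whose levels followed a member most closely were ranked by Pearson's r of log2 CPM (prior count 2) after the mean of each group was taken off, over 10 libraries, among all tested genes that are no member. For *Chga* these were *Vwa1* (r = 0.982), *Slc23a1* (0.971), *Podn* (0.966), *Gip* (0.952) and *Nr1i3* (0.946), all 5 of them lower in KO by edgeR's test. For *Neurod1* they were *Tlr11* (r = 0.965), *4933405D12Rik* (0.961), *Ugt1a1* (0.935), *Slc5a6* (0.934) and *Otulinl* (0.927), and for *Isl1* they were *Lrp1* (0.964), *Agt* (0.961), *Ccny* (0.955), *Wdr81* (0.947) and *Mmp2* (0.946). In the *Neurod1* set 4 genes were lower in KO and *Slc5a6* was higher, and in the *Isl1* set *Agt* was higher and the other 4 were not past the threshold. These are the highest values among all tested genes, they share the 10 libraries and their scaling, and are given as a description with no p. *Gip*, the hormone of proximal K cells, was the only hormone gene of the list used here among them.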

How the data were processed

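RNA was sequenced from intestinal segments of 5 KO and 5 WT mice. For each library the authors deposited counts per Ensembl gene ID without normalization. The submitters' processing notes name FastQC 0.11.9, Trimmomatic, HISAT2 2.0.4, SAMtools 1.3.1, DESeq2 1.14.1 and the build GRCm38 (mm10). How reads were counted, with which annotation and with what regard to strand is not given in the sources used here, so that reads of overlapping genes may be counted for either. IDs were named by GENCODE M21 (GRCm38), which gave 34490 symbols, and 785 IDs without one stayed in the test. Exon lengths are unions of exons of that annotation.

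The members and the gene lists were chosen with earlier results of these data known. In R 4.3.3, edgeR 4.0.16 was run with filterByExpr (minimum count 10, minimum total 15), TMM normalization and the quasi-likelihood test of KO against WT without a covariate, with Benjamini-Hochberg adjustment over 15610 genes and a threshold of 0.05; fold changes are on the log2 scale with the SE of the model. Below the filter, an exact permutation test over the 252 splits into 5 and 5 was used, which cannot go below p = 0.00794. Nothing says that the mice came from separate litters, and p-values measure the spread between these libraries. A listed count of 0 allows up to 3 counts at 95% confidence, for counting error only. Alternatives were RLE normalization, library size only, DESeq2 1.42.0, other filters, robust dispersion, a replicate block, smooth muscle or enteric neuron scores as covariates, scaling to epithelial genes and leaving out libraries. The tests were checked on simulated data.

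Named genes are the 9 members, *Slc39a14*, from each pathway list at most the 6 called genes with the largest log2 fold change and the 3 most abundant, from each marker list at most the 4 most abundant, and the 5 genes most like *Chga*, *Neurod1* and *Isl1*. *Myt1*, *Etv1*, *Vwa5b2*, *Hes1*, *Slc18a1*, *Gcg*, *Xist* and *Ddx3y* were named after their values were seen. Promoter sequences are RefSeq's (GRCm38.p6).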

Additional observations from a re-analysis of the deposited data

Results flagged for a closer look

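Of 46 groups of 5 libraries (the 9 members and the summed CPM of 14 gene lists, in WT and in KO), 4 held a library whose gap to its nearest neighbour was more than 0.71 of the range of its group, the 95% limit for 5 samples. Chance gives this in about 1 group in 20.

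*Neurod1* was at 2.08 CPM in WT replicate 1, below the next WT library at 3.08 CPM (gap 0.851 of the range). *Neurod1* was at 2.37 CPM in KO replicate 1, above the next KO library at 1.42 CPM (gap 0.771 of the range). *Neurod1* was the only member so marked, and both libraries lie towards the other group.

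The summed level of 6 pancreatic acinar genes was 4.93 CPM in KO replicate 2, with the next KO library at 0.702 CPM (gap 0.939 of the range). The summed level of 6 stomach genes was 3.47 CPM in WT replicate 5, with the next WT library at 1.21 CPM (gap 0.724 of the range). Neither library was the highest or the lowest of its group in *Chga*, *Chgb* or *Neurog3*.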

How the results depend on the processing

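The count of members lower in KO (5) lay between 4 and 6 when 1 library was left out, and was 5 without KO replicate 1. It was 0 with the smooth muscle score, 1 with the enteric neuron score and 8 when scaled to 10 epithelial genes, where 7, 107 and 10295 genes of all were past the threshold against 4660 in the reported fit. The scaling to epithelial genes moved the median log2 fold change of all genes to −0.65, and the members are to be read against that. With library size only, 69.4% of all calls were higher in KO against 53.5% with TMM, the median over all genes was 0.15 and 4 members were lower. The cause of these changes was not tested. The log2 fold change turned to 0.033 for *Insm1* and 0.26 for *Pcsk1* with the smooth muscle score and to 0.14 for *Pcsk1* with the enteric neuron score, none past the threshold. Over all genes, leaving out 1 library gave 3207 to 5507 calls.

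*Chga*, *Chgb* and *Neurod1* were past the threshold in 19 of 21 alternatives and *Neurog3* in 20, with *Neurog3* at −1.78 (adjusted p = 0.118) under the smooth muscle score; the others were lost only under the 2 scores, where their log2 fold changes were also smaller: under the smooth muscle and the neuron score, *Chga* was at −0.87 and −0.98, *Chgb* at −1.19 and −1.39, and *Neurod1* at −0.59 under both. *Isl1* was past it in 7 of 21 and in 2 of 10 fits without 1 library. With KO libraries 1 and 4 left out together, chosen after seeing the data, 4 members were lower.

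KO and WT share only replicate numbers: the deviations of same-numbered libraries correlated between −0.167 and 0.177, over 0.1 in 1 of 5 numbers, and 2 of 10 libraries correlated best with their own number. With the replicate number as a block, 4 members were lower, *Isl1* not among them, and 3848 genes of all were past the threshold. Depth limits *Pax4*, with 42 counts over the WT and 33 over the KO libraries, and *Neurog3* in KO, with 61 counts over 5 libraries.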

Other observations

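Hormone and amine genes, the products of the enteroendocrine cells, moved in both directions. Of 12 genes 6 were lower in KO, 3 were higher and 3 were not past the threshold of edgeR's quasi-likelihood test with Benjamini-Hochberg adjustment. Over all tested genes 13.9% were lower and 16.0% higher. The median log2 fold change of the 12 was −0.58. Scaled to epithelial genes, where 63.0% of all tested genes were lower and 2.99% higher, 7 were lower and 1 was higher. With the smooth muscle or the enteric neuron score in the model, 0 of the 12 were past the threshold in either direction. *Gip* was at 82.0 to 115 CPM in WT and 0.839 to 20.0 CPM in KO (log2 fold change −3.83, adjusted p = 0.00313), and its highest KO level was in replicate 1, as for *Chga*. *Ghrl*, the ghrelin gene, changed by −3.41, *Cck* by −2.90, the serotonin synthesis genes *Tph1* and *Ddc* by −2.08 and −1.93, and the monoamine transporter *Slc18a1* by −0.72.

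*Pyy*, a hormone of L cells that are most common in the distal gut, was at 0.642 to 8.24 CPM in WT and 20.4 to 49.2 CPM in KO (log2 fold change 3.09, adjusted p = 0.00431). *Gcg*, the proglucagon gene of the same cells, was higher by 0.91 and *Sct*, the secretin gene, by 0.85 on the log2 scale. *Nts*, which overlapped between the groups, ranged from 7.21 to 74.5 CPM in WT and from 58.5 to 75.6 CPM in KO. WT replicates 4 and 5 had 62.6 and 74.5 CPM, against 7.21 to 29.4 CPM in WT replicates 1 to 3. Of the WT libraries these 2 also had the most *Pyy*, the least *Cck* and the lowest summed level of proximal markers.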
